A study of Mus musculus with 8 samples.

Results

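The 32 genes described here belong to the interferon-gamma response of macrophages, from its receptor to the machinery that the signal turns on. The genes were chosen by symbol from the 22597 genes of the deposited count table. They comprise 8 guanylate-binding proteins (GBPs), 6 immunity-related GTPases (IRGs), 2 receptor chains and the kinase Jak2, the regulators Irf1, Socs1 and Nlrc5, 11 genes of the class I antigen presentation pathway, and the tryptophan-degrading enzyme gene Ido1. All 32 were in the table, and 31 passed the filter on low counts; Ido1 did not. The libraries hold polyadenylated RNA of cells sorted from the lungs of female C57BL/6 mice as interstitial macrophages, the macrophages of the lung tissue as opposed to its air spaces. Recipients were CD45.1/CD45.2 IMDTR mice with a Cx3cr1-DTR allele, whose own interstitial macrophages can be removed with diphtheria toxin, and all were lethally irradiated with the thorax shielded. Marrow came from CD45.2 Tgfbr2fl/fl donors (WT) or from CD45.2 Lyz2Cre Tgfbr2fl/fl donors (Tgfbr2_KO), in which Cre under Lyz2 acts in myeloid cells on the gene of the type II TGF-β receptor. Recipients of both kinds were given 50 ng of diphtheria toxin intraperitoneally 1 month after the transplant, and cells were taken 10 days later. The age label reads 12 to 16 weeks and the protocol gives 18 weeks at irradiation. Each genotype had 4 libraries, called WT 1 to 4 and KO 1 to 4 below. Lyz2Cre was carried by the Tgfbr2_KO donors only, so Lyz2Cre itself and loss of the receptor cannot be told apart. Cells that the host kept, such as those of its shielded lung, are not of the donor genotype. The labels do not say whether each library is a separate mouse, so the p-values measure only how these libraries spread, and that spread may be technical.

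Interferon-gamma binds a receptor built from Ifngr1 and Ifngr2, whose kinases Jak1 and Jak2 pass the signal on to genes with gamma-activated sequences (GAS). They include Irf1, whose product binds the interferon-stimulated response element (ISRE). The signal induces the GBPs and IRGs, GTPases that assemble on the membranes around intracellular microbes. The same signal switches antigen presentation to its interferon-adapted form: immunoproteasome subunits cut proteins into peptides, TAP carries the peptides into the endoplasmic reticulum, and tapasin loads them onto class I molecules.

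The promoters of the GTPase genes show which of these sequences each gene carries, so some are printed before the expression values. Promoters (250 bases before to 50 after the start, RefSeq, build GRCm38.p6) matched 24 of the 32 genes by symbol. Gbp4, Gbp6, Gbp8, Gbp9, Iigp1, Tap2, Nlrc5 and Ido1 had no entry. All promoters of the 24 genes were searched on both strands for TTCNNNGAA (GAS) and for GAAANNGAA, a part of the ISRE. The motifs can overlap in GAA. Gbp3, Irf1, Psme2 and H2-K1 had 2 promoters each, and a gene was counted if either held the motif. For Gbp3 and Irf1 only the first held a motif, and for Irf1 the first is printed below. All 9 GTPase genes with a promoter held GAAANNGAA and 6 held TTCNNNGAA, and the same 6 held both. Among the 27025 genes with a promoter in the table, 9.76% held GAAANNGAA, 9.55% held TTCNNNGAA and 1.42% held both. The 120 bases before the start follow for 5 GTPase genes, for Irf1 and Socs1, and for Ifngr1, 5′ to 3′ on the gene's own strand, with the motif matches in capitals.
Gbp7: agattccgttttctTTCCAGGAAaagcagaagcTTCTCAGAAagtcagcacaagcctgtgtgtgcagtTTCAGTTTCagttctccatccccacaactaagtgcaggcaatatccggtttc
Igtp: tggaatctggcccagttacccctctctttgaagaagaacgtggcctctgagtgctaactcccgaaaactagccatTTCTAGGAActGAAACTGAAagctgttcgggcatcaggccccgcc
Irgm1: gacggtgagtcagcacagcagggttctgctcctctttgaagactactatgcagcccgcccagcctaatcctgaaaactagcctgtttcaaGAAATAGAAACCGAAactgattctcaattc
Irgm2: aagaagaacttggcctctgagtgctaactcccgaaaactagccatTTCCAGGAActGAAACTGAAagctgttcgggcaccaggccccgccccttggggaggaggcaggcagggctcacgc
Tgtp2: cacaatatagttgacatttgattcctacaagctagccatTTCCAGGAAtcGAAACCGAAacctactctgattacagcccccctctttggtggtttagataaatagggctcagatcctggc
Irf1: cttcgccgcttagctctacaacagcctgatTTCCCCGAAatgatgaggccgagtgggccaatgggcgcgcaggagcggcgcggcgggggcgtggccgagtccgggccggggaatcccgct
Socs1: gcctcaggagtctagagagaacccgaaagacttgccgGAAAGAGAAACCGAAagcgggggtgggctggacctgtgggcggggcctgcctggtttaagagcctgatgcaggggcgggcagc
Ifngr1: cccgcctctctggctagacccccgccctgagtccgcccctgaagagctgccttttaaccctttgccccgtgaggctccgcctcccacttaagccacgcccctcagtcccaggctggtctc

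These stretches lie at chr3:142530216-142530335 (plus strand), chr11:58199436-58199555 (plus strand), chr11:48871421-48871540 (minus strand), chr11:58214857-58214976 (plus strand), chr11:49064213-49064332 (minus strand), chr11:53769894-53770013 (plus strand), chr16:10785537-10785656 (minus strand) and chr10:19591829-19591948 (plus strand). In Igtp, Irgm2 and Tgtp2, and also in Tgtp1, a TTCNNNGAA match was followed by a GAAANNGAA match whose first base lay 11 bases further on, with a gap of 2 bases between them. In Gbp7 the first bases of the nearest pair lay 35 bases apart and the second motif was on the other strand. Irgm1 and Socs1 carried 2 overlapping GAAANNGAA matches and no TTCNNNGAA, whereas Irf1 carried TTCNNNGAA alone, at position -90 from the start. Of the class I genes, 10 had a promoter: 1, Psmb8, held TTCNNNGAA and 2, Psme1 and B2m, held GAAANNGAA. The match in Psme1 lay after the start, at position 10. Only exact matches to these letters were counted, so a promoter without one may still carry another form of either element. Ifngr1, Ifngr2 and Jak2 held neither motif in this window. Psmb9 and Tap1, a proteasome subunit and a transporter chain, start back to back on opposite strands in RefSeq, with 225 bases between their RefSeq starts (chr17:34187331-34187555; the GENCODE positions given further on reach past these starts and overlap), shown here on the Tap1 strand because 1 stretch serves both genes; it held neither motif.
Psmb9 to Tap1: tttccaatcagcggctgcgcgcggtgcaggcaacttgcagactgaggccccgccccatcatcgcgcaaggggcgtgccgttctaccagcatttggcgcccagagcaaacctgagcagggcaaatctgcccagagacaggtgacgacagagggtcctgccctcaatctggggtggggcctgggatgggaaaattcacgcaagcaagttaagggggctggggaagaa

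The 8 libraries fell into 2 sets by their content of lung transcripts, which decides how genotypes can be compared. WT 1, WT 2 and KO 1 (called lung-rich) held summed CPM (counts scaled to a common library size, with TMM factors) of 3235 to 5814 for 14 epithelial markers and 2508 to 4853 for 12 endothelial markers, against 169 to 261 and 263 to 333 in the other 5 libraries. The 7 macrophage markers Csf1r, Adgre1, C1qa, C1qb, Mertk, Fcgr1 and Cd68 summed to 7756, 8194, 10968 and 11158 CPM (WT 1 to 4) against 5394, 11923, 11505 and 11618 CPM (KO 1 to 4); they were present in every library and lowest in KO 1. Gene counts summed to between 15597300 and 37654100 per library. The sets were defined from the data and are not groups of the study. The libraries WT 3 and WT 4 lay closest to each other of all libraries of 1 genotype, with a median chi-square 1.45 times that of counting noise, against 2.14 to 3.79 for the other pairs within a set; where they are not independent, errors in every fit that uses both are too small. Genotypes were therefore compared over all 8 libraries, with the set as a term, and in the 5 other libraries (WT 3, WT 4 and KO 2 to 4). KO 1 against WT 1 and WT 2 is given as a log2 difference without a test, since it rests on 1 Tgfbr2_KO library. In bulk RNA, fewer cells of a type and less RNA per cell cannot be told apart.

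In the 5 other libraries most of the class I genes, the interferon-gamma receptor genes and 5 of 8 GBP genes were lower in Tgfbr2_KO, while Gbp7, Irgm1, Irgm2 and Irf1 were higher. In the lung-rich libraries the picture was different: KO 1 held more of all 14 GTPase transcripts than either WT library, and slightly more of 10 of the 11 class I transcripts. The receptor genes Ifngr1, Ifngr2 and Jak2 were lower in Tgfbr2_KO in both sets.

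By count, 4 of the 31 tested genes rose and 21 fell in the 5 other libraries (edgeR quasi-likelihood F-test, adjusted p under 0.05), where 19.7% of all genes tested rose and 18.7% fell. Of the rest, Gbp5, Gbp9, Igtp, Iigp1, Tgtp2 and H2-D1 did not pass. KO 1 lay above both WT 1 and WT 2 for 27 of the 32 genes and below both for 3, against 48.6% and 30.7% of all genes. A test of the difference between the sets (the genotype by set interaction) compared the log2 difference Tgfbr2_KO minus WT. It was called higher, that is more positive, in the lung-rich set for 25 of 31 genes and lower for 0. Over all genes 8.84% were called higher and 10.1% lower. The sign of this shift says nothing of size: Psmb8 differed by -0.62 in the 5 other libraries and by 0.15 for KO 1. KO 1 has no replicate in its set, so this test assumes that it varies like the libraries of the other groups, and a deviation of that 1 library and a difference between the sets cannot be told apart. With the set as a term, 3 genes rose (Gbp7, Irgm2 and Irf1) and 3 fell (Ifngr1, Ifngr2 and Jak2), with 8.59% of all genes higher and 7.89% lower. All 6 of its calls ended when WT 3 and WT 4 were summed to 1 library and KO 4 was left out, and without KO 1 it called 4 higher and 20 lower, where 16.0% of all genes were higher and 15.2% lower. Over all 8 libraries 0 of 31 passed with edgeR in either direction, where 0.196% of all genes were higher and 0.102% lower. An unadjusted p under 0.05 was found for 2 of them, Gbp7 and Irgm1, against 10.4% of all genes, and DESeq2 called 1, Gbp7, higher, against 2.72% of all genes higher and 1.41% lower. Gbp7 and Irgm1 were also the 2 genes whose genotypes did not overlap over the 8 libraries, both higher in Tgfbr2_KO; 4.19% of all genes were higher and 2.71% lower without overlap. When KO 1 was left out, the 8-library comparison called Gbp7 higher and Gbp4 and Gbp6 lower.

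Markers of other blood and lung cells also differed between the genotypes in the 5 other libraries. The 6 monocyte markers summed to 683, 522, 1273 and 1285 CPM (WT 1 to 4) against 443, 823, 734 and 779 CPM (KO 1 to 4). The 8 alveolar macrophage markers summed to 130.3, 141, 461 and 471 CPM (WT 1 to 4) against 183, 115, 134 and 124 CPM (KO 1 to 4), and the 8 neutrophil markers to 47.6, 35.97, 77.96 and 77.1 CPM (WT 1 to 4) against 48.7, 38.2, 37.5 and 39.6 CPM (KO 1 to 4). In the lung-rich libraries Car4 made up much of the alveolar macrophage sum, at 64.1 CPM in WT 1, 54.8 in WT 2 and 107 in KO 1. It was at 5.08 to 11.9 CPM in the other 5 libraries. All 3 sums were higher in WT 3 and WT 4 than in KO 2 to 4. Chil3, a chitinase-like gene on both of the first lists, was at 17.5, 30.04, 348 and 347 CPM (WT 1 to 4) against 20.4, 16.5, 17.6 and 15.8 CPM (KO 1 to 4) and made up much of the first 2 differences. The 8 dendritic cell markers went the other way, at 88.1, 74.9, 51.03 and 50.4 CPM (WT 1 to 4) against 100.5, 89.4, 91.7 and 89.6 CPM (KO 1 to 4), lower in WT 3 and WT 4 than in KO 2 to 4. By gene, 1 of 6 tested monocyte markers rose and 2 fell, 1 of 6 alveolar macrophage markers rose and 4 fell, 0 of 7 neutrophil markers rose and 5 fell, and 4 of 7 dendritic cell markers rose and 1 fell (edgeR). Over all genes tested in these libraries 19.7% rose and 18.7% fell. The part of such cells in the differences of the 5 other libraries was not tested.

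**Figure D1:**
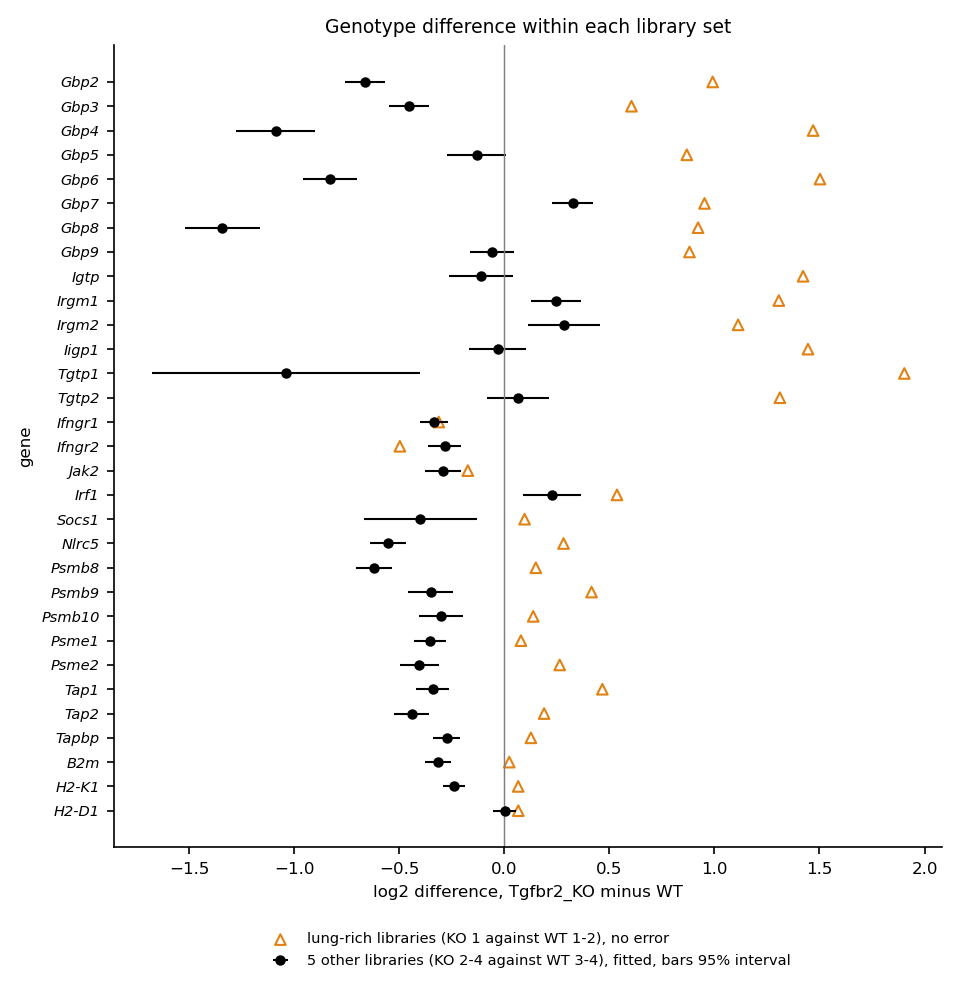
Log2 difference between Tgfbr2_KO and WT (x axis) for the 31 tested genes (y axis). Black points are fitted values in the 5 other libraries with 95% intervals, and open triangles are KO 1 against WT 1 and WT 2, with no error. For the 14 GTPase genes every triangle lies right of 0, between 0.61 (Gbp3) and 1.90 (Tgtp1), while the black points run from -1.34 (Gbp8) to 0.33 (Gbp7).

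Both chains of the receptor and the kinase Jak2 were lower in Tgfbr2_KO within each set. In the lung-rich set this rests on KO 1. All 7 macrophage markers also lay below both WT libraries there, as did 30.7% of all genes, with a median log2 difference of -0.52. In the 5 other libraries 3 of these 7 markers rose and 2 fell, against 19.7% and 18.7% of all genes. The part of macrophage content in the receptor values of KO 1 was not tested. Ifngr1 (ENSMUSG00000020009, chromosome 10, 19591949 to 19610229, plus strand, GRCm38 with GENCODE M21 positions here and below), the ligand-binding chain, was at 275, 297, 360.4 and 365 CPM (WT 1 to 4) against 230.1, 279.6, 294 and 288 CPM (KO 1 to 4). Each Tgfbr2_KO library lay below every WT library of its own set, although KO 3 and WT 2 were nearly level across sets. In the 5 other libraries the log2 fold change was -0.34 (edgeR, SE 0.03, adjusted p = 8.42e-08), and KO 1 differed from the lung-rich WT libraries by -0.31. With the set as a term the log2 fold change was -0.33 (edgeR, SE 0.05, adjusted p = 0.00358), and the difference between the sets was 0.02 (95% interval -0.14 to 0.19).

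Ifngr2 (ENSMUSG00000022965, chromosome 16, 91547072 to 91565623, plus strand), the signalling chain that brings Jak2 to the receptor, was at 142, 162, 179 and 181 CPM (WT 1 to 4) against 108, 144, 152 and 148 CPM (KO 1 to 4). KO 1 was the lowest library and WT 3 and WT 4 the highest. Its log2 fold change was -0.28 (edgeR, SE 0.04, adjusted p = 4.26e-06) in the 5 other libraries and -0.36 (edgeR, SE 0.06, adjusted p = 0.00797) with the set as a term, with -0.497 for KO 1. Jak2 (ENSMUSG00000024789, chromosome 19, 29251828 to 29313080, plus strand), the kinase bound to that chain, was at 90.6, 100.3, 126 and 131 CPM (WT 1 to 4) against 84.5, 103, 104 and 109 CPM (KO 1 to 4). The WT 3 and WT 4 values lay above all 6 other libraries, and KO 1 below them all. This gave a log2 fold change of -0.29 (edgeR, SE 0.04, adjusted p = 1.17e-05) in the 5 other libraries, -0.17 for KO 1, and -0.25 (edgeR, SE 0.05, adjusted p = 0.0151) with the set as a term. The last of these was lost without WT 3 or WT 4 (edgeR adjusted p = 0.0527 and 0.0687).

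Ifng itself, the gene of the cytokine, was at or near 0: 4 counts in KO 1, 2 in WT 2, 1 in WT 1 and KO 4, and 0 in WT 3, WT 4, KO 2 and KO 3. A count of 0 allows up to 3 counts, or 0.0844 to 0.154 CPM in those 4 libraries, for counting error only. The protein was not measured.

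Of the 3 regulators, Irf1 was higher in Tgfbr2_KO in both sets, and Nlrc5 and Socs1 were lower in the 5 other libraries. Irf1 (ENSMUSG00000018899, chromosome 11, 53770014 to 53778374, plus strand), the transcription factor that binds the ISRE, was at 281, 259.8, 157 and 163 CPM (WT 1 to 4) against 392, 197, 169 and 195 CPM (KO 1 to 4). The 3 lung-rich libraries were the highest of all 8, with KO 1 on top, and within the other 5 the lowest Tgfbr2_KO library lay just above WT 4. On the log2 scale the genotypes differed by 0.23 (edgeR, SE 0.06, adjusted p = 0.016) in the 5 other libraries, 0.54 for KO 1 and 0.34 (edgeR, SE 0.08, adjusted p = 0.024) with the set as a term. It did not pass in the 5 other libraries without WT 3 or WT 4 (edgeR adjusted p = 0.129 and 0.0712), nor with the set as a term without WT 3, WT 4, KO 2 or KO 4 (0.0825, 0.0559, 0.0646 and 0.0713).

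Nlrc5 (ENSMUSG00000074151, chromosome 8, 94434356 to 94527272, plus strand), the activator that drives class I genes, was at 73.6, 76.98, 149 and 142 CPM (WT 1 to 4) against 91.6, 102, 96.3 and 97.6 CPM (KO 1 to 4). WT 3 and WT 4 stood above the other 6 libraries, among which the Tgfbr2_KO libraries were the higher. The log2 fold change in the 5 other libraries was -0.55 (edgeR, SE 0.04, adjusted p = 1.5e-09), against 0.28 for KO 1, and the difference between the sets was 0.84 (edgeR, SE 0.08, adjusted p = 6.72e-05). Socs1 (ENSMUSG00000038037, chromosome 16, 10782240 to 10785536, minus strand), which blocks Jak kinases as a feedback inhibitor, was at 9.58, 7.86, 10.8 and 10.6 CPM (WT 1 to 4) against 9.32, 9.498, 7.44 and 7.15 CPM (KO 1 to 4). All 8 values lay close together, with KO 3 and KO 4 lowest. Its log2 fold change of -0.40 (edgeR, SE 0.13, adjusted p = 0.0187) in the 5 other libraries was lost without WT 3, WT 4 or KO 4 (edgeR adjusted p = 0.111, 0.115 and 0.0916) and with DESeq2 (adjusted p = 0.0662).

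The guanylate-binding proteins sit in 2 clusters, Gbp2, Gbp3, Gbp5 and Gbp7 on chromosome 3 and Gbp4, Gbp6, Gbp8 and Gbp9 on chromosome 5, and did not move as 1 group. In the 5 other libraries 1 of 8 rose (Gbp7), 5 fell (Gbp2, Gbp3, Gbp4, Gbp6 and Gbp8) and 2 did not pass, where 19.7% of all genes rose and 18.7% fell. The median log2 fold change was -0.56 in the 5 other libraries, with -0.002 over all genes. In the lung-rich set KO 1 was higher than both WT libraries for all 8 genes, and for 48.6% of all genes. The median difference was 0.94 against 0.06 over all genes.

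Gbp7 (ENSMUSG00000040253, chromosome 3, 142530342 to 142550149, plus strand), a GBP linked to assembly of the phagocyte oxidase and whose promoter is printed above, was at 81.9, 75.6, 85.3 and 87.1 CPM (WT 1 to 4) against 152, 104, 115 and 105 CPM (KO 1 to 4). All 4 Tgfbr2_KO libraries lay above all 4 WT libraries, and KO 1 was highest. Tgfbr2_KO differed from WT by a log2 fold change of 0.53 (edgeR, SE 0.13, adjusted p = 0.176) over 8 libraries, 0.55 (edgeR, SE 0.12, adjusted p = 0.0177) with the set as a term and 0.33 (edgeR, SE 0.05, adjusted p = 1.48e-05) in the 5 other libraries. KO 1 differed from WT 1 and WT 2 by 0.95, or 1.94 times their mean, against 1.25 times in the 5 other libraries. Gbp7 was the 1 riser of the 5 other libraries that stayed called in every alternative run there.

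Gbp8 (ENSMUSG00000034438, chromosome 5, 105014150 to 105139540, minus strand) was at 8.52, 11.2, 30.8 and 34.1 CPM (WT 1 to 4) against 18.7, 12.5, 14.02 and 11.9 CPM (KO 1 to 4). The libraries WT 3 and WT 4 stood far above the other 6 libraries. Among the 14 GTPase genes its log2 fold change in the 5 other libraries was the lowest, -1.34 (edgeR, SE 0.09, adjusted p = 2e-10), or 0.395 times the WT mean, while KO 1 differed by 0.92. Gbp4 (ENSMUSG00000079363, chromosome 5, 105115767 to 105139586, minus strand) was at 62.3, 57.4, 27.7 and 31.6 CPM (WT 1 to 4) against 166, 14.4, 12.5 and 15.01 CPM (KO 1 to 4). KO 1 held 11.9 times the mean of KO 2 to 4, and the order of genotypes was opposite in the sets. This gave a log2 fold change of -1.09 (edgeR, SE 0.09, adjusted p = 7.98e-09) in the 5 other libraries and 1.47 for KO 1, a difference between the sets of 2.56 (edgeR, SE 0.13, adjusted p = 2.46e-06).

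Gbp6 (ENSMUSG00000104713, chromosome 5, 105270702 to 105293698, minus strand) showed the same reversal, at 47.1, 53.9, 57.3 and 61.3 CPM (WT 1 to 4) against 143, 32.1, 35.8 and 32.4 CPM (KO 1 to 4). KO 1 was the highest library and KO 2 to 4 were the lowest. This came to a log2 fold change of -0.83 (edgeR, SE 0.06, adjusted p = 1.72e-09) in the 5 other libraries, with 1.502 for KO 1. Gbp2 (ENSMUSG00000028270, chromosome 3, 142620602 to 142638008, plus strand), which coats the vacuoles of intracellular parasites, was at 79.3, 78.2, 149.9 and 146 CPM (WT 1 to 4) against 157, 99.7, 89.7 and 89.97 CPM (KO 1 to 4). WT 3, WT 4 and KO 1 were high and WT 1 and WT 2 low, so that each genotype spanned most of the range. On the log2 scale the genotypes differed by -0.66 (edgeR, SE 0.05, adjusted p = 5.47e-10) in the 5 other libraries and 0.99 for KO 1.

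Gbp3 (ENSMUSG00000028268, chromosome 3, 142560026 to 142573209, plus strand) was at 46.7, 56.04, 85.7 and 84.3 CPM (WT 1 to 4) against 77.9, 60.7, 61.6 and 63.7 CPM (KO 1 to 4), with a log2 fold change of -0.45 (edgeR, SE 0.05, adjusted p = 1.34e-07) in the 5 other libraries and 0.61 for KO 1. Its highest libraries were WT 3 and WT 4 and its lowest WT 1 and WT 2. Gbp5 (ENSMUSG00000105504, chromosome 3, 142493978 to 142522344, plus strand), which takes part in inflammasome activation, was at 24.5, 29.3, 32.2 and 34.7 CPM (WT 1 to 4) against 49.03, 31.8, 29.4 and 30.5 CPM (KO 1 to 4). KO 1 alone stood out, and the others lay between 24.5 and 34.7 CPM. In the 5 other libraries Gbp5 had a log2 fold change of -0.13 (95% interval -0.27 to 0.01, edgeR adjusted p = 0.137). Gbp9 (ENSMUSG00000029298, chromosome 5, 105077630 to 105139539, minus strand) was at 83.99, 76.6, 61.5 and 59.9 CPM (WT 1 to 4) against 148, 58.7, 59.9 and 55.7 CPM (KO 1 to 4). The 3 lung-rich libraries were highest and the other 5 differed little, with a log2 fold change of -0.06 (95% interval -0.16 to 0.05, edgeR adjusted p = 0.392).

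**Figure D2:**
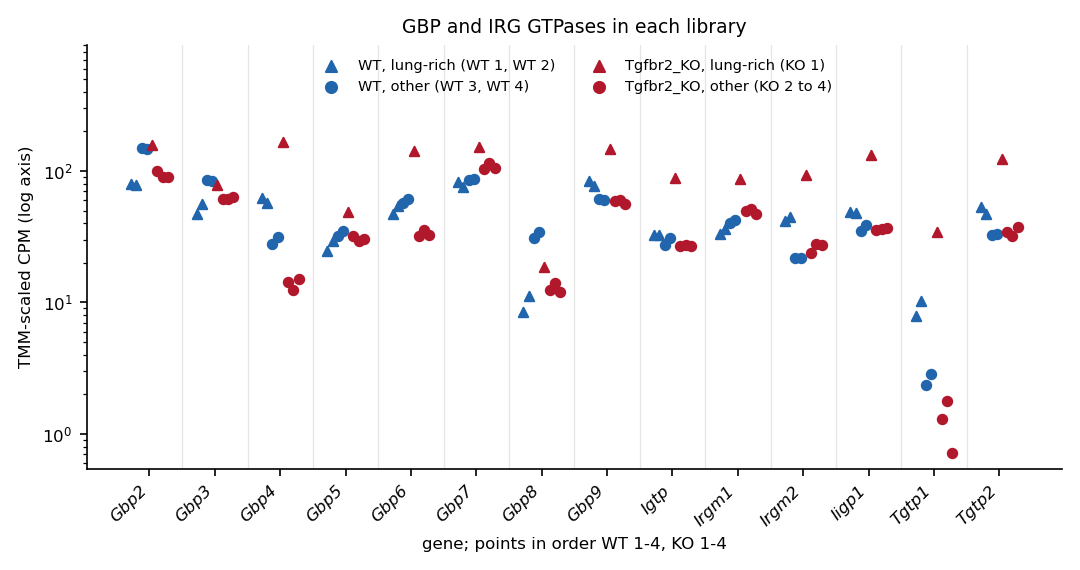
TMM-scaled CPM (log y axis) of the 14 GBP and IRG genes (x axis), 1 point a library in the order WT 1 to 4 and KO 1 to 4; blue is WT, red is Tgfbr2_KO, and triangles are lung-rich libraries. The red triangle, KO 1, is the highest point of 12 of the 14 genes; for Gbp3 and Gbp8, WT 3 and WT 4 are higher.

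Among the IRG genes in the 5 other libraries, 2 of 6 rose (Irgm1 and Irgm2), 1 fell (Tgtp1) and 3 did not pass, with a median log2 fold change of 0.02. Over all genes tested there 19.7% rose and 18.7% fell. In the lung-rich set KO 1 exceeded both WT libraries for all 6, by a median of 1.37, and for 48.6% of all genes. IRGs fall into regulators, Irgm1, Irgm2 and Igtp (also called Irgm3), which guard host membranes, and effectors such as Iigp1, Tgtp1 and Tgtp2, which attack the vacuole around a parasite.

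Among the regulators, Irgm1 (ENSMUSG00000046879, chromosome 11, 48861968 to 48871683, minus strand) was at 33.4, 36.2, 40.3 and 42.5 CPM (WT 1 to 4) against 86.1, 49.5, 50.98 and 47.02 CPM (KO 1 to 4). Each Tgfbr2_KO library lay above each WT library, by little in KO 4 against WT 4 and by most in KO 1. Tgfbr2_KO differed from WT by a log2 fold change of 0.62 (edgeR, SE 0.21, adjusted p = 0.334) over 8 libraries, 0.64 (edgeR, SE 0.19, adjusted p = 0.0557) with the set as a term, and 0.25 (edgeR, SE 0.06, adjusted p = 0.00196) in the 5 other libraries, against 1.31 for KO 1. The call in the 5 other libraries was lost without WT 3 (edgeR adjusted p = 0.0516).

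Irgm2 (ENSMUSG00000069874, chromosome 11, 58199618 to 58222782, plus strand) was at 41.6, 44.9, 21.6 and 21.7 CPM (WT 1 to 4) against 93.6, 23.7, 28.04 and 27.5 CPM (KO 1 to 4). The lung-rich libraries were highest in each genotype, and within each set Tgfbr2_KO lay above WT. Its log2 fold change was 0.61 (edgeR, SE 0.16, adjusted p = 0.0365) with the set as a term and 0.28 (edgeR, SE 0.08, adjusted p = 0.00996) in the 5 other libraries, with 1.11 for KO 1. In the 5 other libraries it did not pass without WT 3, WT 4 or KO 4 (edgeR adjusted p = 0.0742, 0.0873 and 0.0526), and with the set as a term it passed only without KO 1 or KO 2 among the libraries left out in turn (otherwise 0.0612 to 0.0852). Igtp (ENSMUSG00000078853, chromosome 11, 58199556 to 58207591, plus strand) was at 32.4, 32.8, 27.3 and 30.9 CPM (WT 1 to 4) against 87.6, 26.8, 27.4 and 26.9 CPM (KO 1 to 4). Without KO 1 the libraries lay between 26.8 and 32.8 CPM, while KO 1 held 3.24 times the mean of KO 2 to 4. Its log2 fold change in the 5 other libraries was -0.11 (95% interval -0.26 to 0.04, edgeR adjusted p = 0.242).

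The effector Iigp1 (ENSMUSG00000054072, chromosome 18, 60376027 to 60392634, plus strand) was at 48.6, 47.95, 34.7 and 38.6 CPM (WT 1 to 4) against 132, 35.4, 36.1 and 36.6 CPM (KO 1 to 4). KO 1 stood apart, and KO 2 to 4 lay between WT 3 and WT 4. The log2 fold change in the 5 other libraries was -0.03 (95% interval -0.17 to 0.10, edgeR adjusted p = 0.747), and KO 1 differed by 1.45. Tgtp2 (ENSMUSG00000078921, chromosome 11, 49057194 to 49064206, minus strand) was at 53.4, 46.7, 32.8 and 33.1 CPM (WT 1 to 4) against 124, 34.2, 31.9 and 37.4 CPM (KO 1 to 4). KO 1 was again highest and the genotypes overlapped in the 5 other libraries, with a log2 fold change there of 0.07 (95% interval -0.08 to 0.21, edgeR adjusted p = 0.494), against 1.31 for KO 1.

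Tgtp1 (ENSMUSG00000078922, chromosome 11, 48985327 to 48994172, minus strand) was at 7.87, 10.3, 2.36 and 2.84 CPM (WT 1 to 4) against 34.1, 1.29, 1.78 and 0.715 CPM (KO 1 to 4). The low values of the 5 other libraries spread widely, and KO 1 lay far above every other library. This came to a log2 fold change of -1.04 (edgeR, SE 0.30, adjusted p = 0.0105) in the 5 other libraries, a call lost without WT 4 (edgeR adjusted p = 0.172), and 1.90 for KO 1. Tgtp1 and Tgtp2 cannot be separated with confidence: 84.4% and 90.5% of the 31-base stretches of their transcripts occur in another gene, mostly in each other. The same holds for Gbp6 (74.2%, mostly the neighbour Gm43302), and in part for Psme2 (33.5%), Gbp8 (31.1%), H2-D1 (26.7%) and H2-K1 (22.8%). Gbp4, Gbp8 and Gbp9 also overlap in position on chromosome 5, and Igtp and Irgm2 on chromosome 11.

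Ido1 (ENSMUSG00000031551, chromosome 8, 24584136 to 24597009, minus strand), which breaks down tryptophan and is a classical interferon-gamma target, was nearly confined to the lung-rich libraries. It had 103 counts in KO 1, 25 in WT 1, 13 in WT 2 and 2 in WT 4, and 0 in WT 3 and KO 2 to 4, where a count of 0 allows up to 0.125 to 0.165 CPM. KO 1 was at 3.41 CPM, WT 1 at 1.48 and WT 2 at 0.571. No fit included it.

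The class I pathway was lower in Tgfbr2_KO in the 5 other libraries, by small amounts that exceeded the spread there. Of 11 genes 10 fell, against 18.7% of all genes, and the other, H2-D1, did not pass. The monocyte, alveolar macrophage and neutrophil sums given above were lower, and the dendritic cell sum higher, in the same Tgfbr2_KO libraries. The median log2 fold change was -0.34, within a range of -0.62 (Psmb8) to 0.00 (H2-D1), with -0.002 over all genes. KO 1 lay above both lung-rich WT libraries for 10 of the 11 and for 48.6% of all genes. The median difference was 0.14 against 0.06 over all genes. The difference between the sets was called higher for 10 of the 11, against 8.84% of all genes. That call was lost for B2m and H2-K1 without WT 3, WT 4, KO 2, KO 3 or KO 4 (edgeR adjusted p from 0.0525 to 0.171) and for Psmb10 without WT 4 (0.0622). Most of the WT span lay between sets: WT 1 and WT 2 held less of all 11 transcripts than WT 3 and WT 4, from 0.542 times as much for Psmb8 to 0.745 times for Tap2.

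All 5 immunoproteasome genes fell in the 5 other libraries. Psmb8 (ENSMUSG00000024338, chromosome 17, 34197721 to 34201454, plus strand), a catalytic subunit that replaces its constitutive counterpart, was at 89.5, 93.1, 172 and 164 CPM (WT 1 to 4) against 101, 109, 106 and 113 CPM (KO 1 to 4). The WT 3 and WT 4 values stood above the other 6 libraries, which lay between 89.5 and 113 CPM. This gave a log2 fold change of -0.62 (edgeR, SE 0.04, adjusted p = 2.64e-10) in the 5 other libraries and 0.15 for KO 1. The other catalytic subunits followed: Psmb10 (ENSMUSG00000031897, chromosome 8, 105935735 to 105938444, minus strand) was at 52.2, 50.2, 76.4 and 76.95 CPM (WT 1 to 4) against 56.4, 60.2, 60.5 and 65.9 CPM (KO 1 to 4), with a log2 fold change of -0.30 (edgeR, SE 0.05, adjusted p = 6.81e-05) in the 5 other libraries. Psmb9 (ENSMUSG00000096727, chromosome 17, 34181987 to 34187764, minus strand) was at 38.7, 36.4, 57.8 and 58.1 CPM (WT 1 to 4) against 50.1, 45.6, 46.3 and 44.1 CPM (KO 1 to 4), with a log2 fold change of -0.35 (edgeR, SE 0.05, adjusted p = 1.92e-05) there and 0.42 for KO 1. In every one of the 3, KO 2 to 4 lay between the lung-rich and the other WT libraries.

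Psme1 (ENSMUSG00000022216, chromosome 14, 55578123 to 55581529, plus strand) and Psme2 encode the cap that opens the proteasome. Psme1 was at 103, 102, 159.6 and 154 CPM (WT 1 to 4) against 108, 124, 121 and 122 CPM (KO 1 to 4). Psme2 (ENSMUSG00000079197, chromosome 14, 55587441 to 55591113, minus strand) was at 55.2, 50.8, 83.6 and 84.6 CPM (WT 1 to 4) against 63.6, 63.5, 62.2 and 64.8 CPM (KO 1 to 4). For both, WT 3 and WT 4 were highest and WT 1 and WT 2 lowest, and in the 5 other libraries the genotypes differed by log2 values of -0.35 (edgeR, SE 0.04, adjusted p = 2.64e-07) and -0.40 (edgeR, SE 0.04, adjusted p = 5.12e-07).

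Both transporter chains and tapasin also fell in the 5 other libraries. Tap1 (ENSMUSG00000037321, chromosome 17, 34187553 to 34197225, plus strand) was at 117, 109, 186 and 196 CPM (WT 1 to 4) against 156, 149.6, 153 and 151 CPM (KO 1 to 4). The 4 Tgfbr2_KO libraries were nearly level and lay between WT 1 and 2 and WT 3 and 4. On the log2 scale the genotypes differed by -0.34 (edgeR, SE 0.04, adjusted p = 3.29e-07) in the 5 other libraries and 0.47 for KO 1, which gave the largest difference between the sets among class I genes, 0.81 (edgeR, SE 0.08, adjusted p = 6.85e-05). Tap2 (ENSMUSG00000024339, chromosome 17, 34203527 to 34216321, plus strand) was at 91.7, 88.97, 124 and 119 CPM (WT 1 to 4) against 103, 89.3, 89.4 and 88.6 CPM (KO 1 to 4). KO 2 to 4 were within 1 CPM of each other and level with WT 1 and WT 2, and the log2 fold change in the 5 other libraries was -0.44 (edgeR, SE 0.04, adjusted p = 3.2e-08). Tapbp (ENSMUSG00000024308, chromosome 17, 33915899 to 33929292, plus strand), which encodes tapasin, was at 274, 283, 386 and 397 CPM (WT 1 to 4) against 304, 329, 317 and 324 CPM (KO 1 to 4). Its log2 fold change was -0.27 (edgeR, SE 0.03, adjusted p = 6.85e-07) in the 5 other libraries, where all 3 Tgfbr2_KO libraries lay below both WT libraries.

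Of the class I chains, B2m and H2-K1 fell in the 5 other libraries and H2-D1 did not pass. B2m (ENSMUSG00000060802, chromosome 2, 122147686 to 122153083, plus strand), the light chain, was at 1986, 2214, 3293 and 3363 CPM (WT 1 to 4) against 2132, 2573, 2699 and 2747 CPM (KO 1 to 4). WT 3 and WT 4 were highest and the lung-rich libraries lowest. Its log2 fold change in the 5 other libraries was -0.31 (edgeR, SE 0.03, adjusted p = 4.47e-08), and KO 1 differed by 0.02. The heavy chain gene H2-K1 (ENSMUSG00000061232, chromosome 17, 33996017 to 34000347, minus strand) was at 1541, 1646, 2398 and 2398 CPM (WT 1 to 4) against 1668, 2002, 2054 and 2028 CPM (KO 1 to 4). As for B2m, WT 3 and WT 4 were highest and the lung-rich libraries lowest, with a log2 fold change of -0.24 (edgeR, SE 0.03, adjusted p = 3.18e-07) in the 5 other libraries and 0.07 for KO 1.

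H2-D1 (ENSMUSG00000073411, chromosome 17, 35262730 to 35267499, plus strand), the other heavy chain gene, was at 2127, 2292, 3279.8 and 3342 CPM (WT 1 to 4) against 2313, 3225, 3328 and 3375 CPM (KO 1 to 4). KO 2 to 4 overlapped WT 3 and WT 4, and KO 1 lay just above WT 2. Tgfbr2_KO differed from WT by a log2 fold change of 0.00 in the 5 other libraries, with a 95% interval of -0.05 to 0.06 that holds neither the value of H2-K1 nor that of B2m, and an edgeR adjusted p of 0.972. The difference between H2-D1 and H2-K1 was not itself tested, and reads of the 2 can be split between them.

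**Figure D3:**
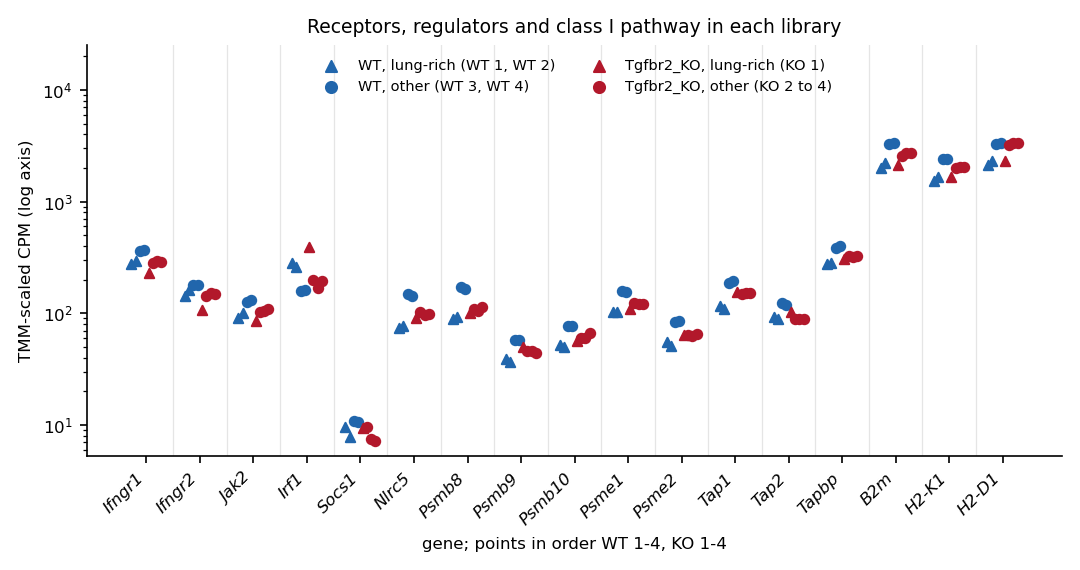
TMM-scaled CPM (log y axis) of the receptor, regulator and class I genes (x axis), 1 point a library, with colours and symbols for genotype and library set. Among class I genes WT 3 and WT 4 (blue circles) are the highest points except for H2-D1, where KO 2 to 4 reach 3225 to 3375 CPM against 3280 and 3342 in WT 3 and WT 4.

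Summed levels set the GTPases beside the class I genes. The 14 GTPase genes summed to 652, 657, 689 and 709 CPM (WT 1 to 4) against 1469, 585, 594 and 581 CPM (KO 1 to 4). KO 1 stood alone at the top, and the other 7 libraries lay between 581 and 709 CPM. The 11 class I genes summed to 6475, 6966, 10217 and 10352 CPM (WT 1 to 4) against 7055, 8771, 9036 and 9123 CPM (KO 1 to 4). Here KO 1 lay with WT 1 and WT 2, below the other 5 libraries. The chain genes B2m, H2-K1 and H2-D1 made up most of this sum, 6112 of 7055 CPM in KO 1. The TAP and tapasin sum in KO 1 was 563 CPM, level with KO 2 to 4 (568, 559 and 563). WT 1 and WT 2 held 483 and 481 CPM of it. The immunoproteasome sum in KO 1 was 380 CPM, above WT 1 and WT 2 (339 and 332). KO 2 to 4 held 403, 396 and 409 CPM. In the test of the difference between the sets, the GBPs and IRGs had median log2 values of 1.36 and 1.36, the immunoproteasome 0.67, the TAP and tapasin genes 0.64, the class I chains 0.31 and the receptor genes 0.02, beside 0.03 over all genes.

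Markers of structural lung cells and of B cells were higher in the lung-rich set, and highest in KO 1. The 12 endothelial markers summed to 3234, 2508, 333 and 329 CPM (WT 1 to 4) against 4853, 263, 295 and 273 CPM (KO 1 to 4), the 14 epithelial markers to 3709, 3235, 261 and 260.3 CPM (WT 1 to 4) against 5814, 169, 225 and 203 CPM (KO 1 to 4), and the 10 fibroblast markers to 944, 894, 152 and 153 CPM (WT 1 to 4) against 1397, 127, 164 and 145 CPM (KO 1 to 4). The 7 B-cell markers summed to 70.8, 48.1, 12.8 and 15.9 CPM (WT 1 to 4) against 89.04, 18.7, 19.1 and 18.3 CPM (KO 1 to 4). These 4 sums were each highest in KO 1, the library in which the GTPase sum was highest. The monocyte sum was lower in WT 1, WT 2 and KO 1 than in the other 5 libraries. In WT 1 and WT 2 the GBP sum was 434 and 438 CPM, below the 530 and 539 of WT 3 and WT 4, while the IRG sum was 217 and 219 CPM, above their 159 and 170. Within WT, single GTPase genes did differ between sets: Tgtp1 was 3.497 times, Gbp4 2.02 times and Irgm2 1.997 times as high in WT 1 and 2 as in WT 3 and 4, while Gbp8 was 0.304 times and Gbp2 0.531 times. The part of other lung cells in the values of KO 1 was not tested.

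The 17 markers of natural killer and T cells, which make interferon-gamma, summed to 42.4, 60.9, 54.2 and 53.1 CPM (WT 1 to 4) against 69.5, 72.2, 94.2 and 80.9 CPM (KO 1 to 4). Cd4 and Cd2 made up most of this sum, and neither is restricted to T cells. Defining genes were low in every library. Cd3e, a T-cell receptor subunit, was at 0.651, 0.703, 0 and 0.253 CPM (WT 1 to 4) against 1.55, 0, 0.153 and 0.165 CPM (KO 1 to 4), and Gzma, a granzyme, at 3.79, 3.73, 0.718 and 0.281 CPM (WT 1 to 4) against 6.25, 0.208, 0.663 and 0.55 CPM (KO 1 to 4). Ncr1, a natural killer cell receptor, was at 0.355, 0.132, 0 and 0.0281 CPM (WT 1 to 4) against 0.926, 0, 0 and 0.11 CPM (KO 1 to 4). These 3 are examples and were highest in KO 1, but the sum of the list was highest in KO 3. Of the 17, Cd2, Cd4, Klrd1 and Eomes were not highest in KO 1. Klrd1, a natural killer cell receptor, was at 1.45 CPM in KO 1 and 1.94 CPM in KO 3. Eomes, a transcription factor, was at 1.06 CPM in KO 1 and 1.18 CPM in WT 1. None of the 17 was at 0 in all libraries. The part of natural killer and T cells in the GTPase levels of KO 1 was not tested.

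**Figure D4:**
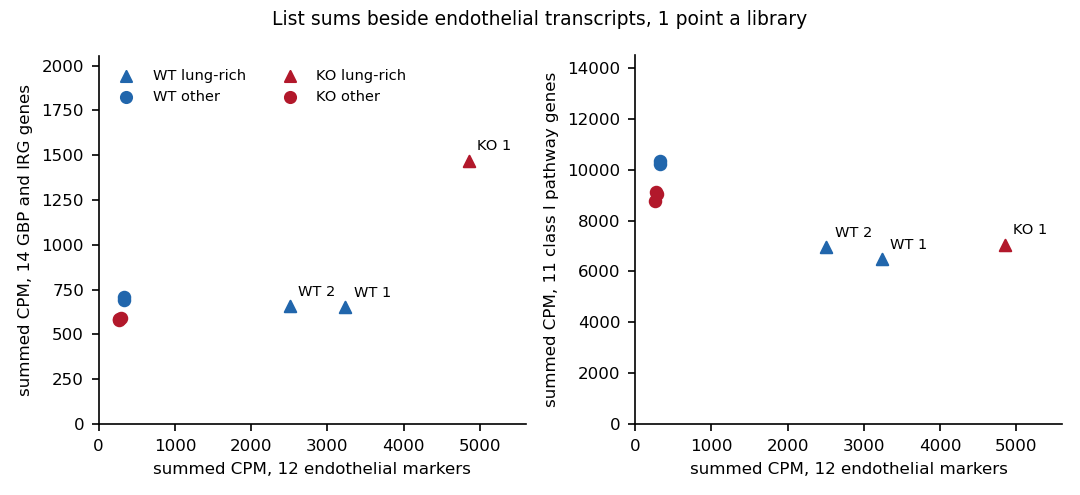
Summed CPM of the 14 GBP and IRG genes (left y axis) and of the 11 class I genes (right y axis) against the summed CPM of 12 endothelial markers (x axis), 1 point a library. KO 1 lies at 4853 CPM of endothelial markers and 1469 CPM of GTPases, while WT 1 and WT 2, at 3234 and 2508 CPM of endothelial markers, have 652 and 657 CPM of GTPases.

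Other genes of the same pathway were read from lists chosen with earlier results of these data known. Of 13 tested genes of interferon-gamma signalling, 6 rose and 2 fell in the 5 other libraries (edgeR), and with the set as a term Stat2 rose and Irf8 fell. Over all genes the shares were 19.7% higher and 18.7% lower in the 5 other libraries and 8.59% and 7.89% with the set as a term, here and for the lists that follow. Stat2, better known from type I interferon signalling, was at 59.8, 59.3, 59.9 and 61.7 CPM (WT 1 to 4) against 86.95, 71.4, 79.1 and 73.7 CPM (KO 1 to 4). All Tgfbr2_KO libraries lay above all WT libraries, and the log2 fold change with the set as a term was 0.39 (edgeR, SE 0.06, adjusted p = 0.00551). Irf8, a lineage factor of monocytes and macrophages, was at 126, 117, 189 and 178 CPM (WT 1 to 4) against 101, 154, 143 and 153 CPM (KO 1 to 4). Within each set Tgfbr2_KO lay below WT, with a log2 fold change of -0.28 (edgeR, SE 0.05, adjusted p = 0.00801) with the set as a term.

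Of 9 tested further genes from families of interferon-inducible GTPases, 5 rose and 1, Irgc1, fell in the 5 other libraries, with a median log2 fold change of 0.32. Whether each of them is inducible was not tested. F830016B08Rik, an IRG-like gene, was at 8.16, 9.66, 12.1 and 11.98 CPM (WT 1 to 4) against 13.7, 17.6, 17.99 and 17.2 CPM (KO 1 to 4), with a log2 fold change of 0.57 (edgeR, SE 0.08, adjusted p = 0.00262) with the set as a term. 9930111J21Rik2 was at 99.7, 80.5, 73.4 and 70.2 CPM (WT 1 to 4) against 118, 102, 90.2 and 96.6 CPM (KO 1 to 4), and Tgfbr2_KO lay above WT in each set, by a log2 fold change of 0.41 (edgeR, SE 0.07, adjusted p = 0.00903). Gvin1, a very large inducible GTPase, was at 207, 158, 218 and 228 CPM (WT 1 to 4) against 332, 268, 277 and 270.3 CPM (KO 1 to 4), with a log2 fold change of 0.49 (edgeR, SE 0.13, adjusted p = 0.0351). These 3 were thus higher in both sets, like Gbp7, Irgm1 and Irgm2. Irgc1 was at 2 CPM or less in every library and had a log2 fold change of -1.09 (edgeR, SE 0.32, adjusted p = 0.0499), just inside the threshold.

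Of 20 other interferon-gamma targets, 4 rose and 9 fell in the 5 other libraries, and with the set as a term 3 rose and 2 fell. The share of the targets that rose in the 5 other libraries was near that of all genes. Batf2, a transcription factor of activated macrophages, was at 7.93, 8.17, 9.13 and 8.66 CPM (WT 1 to 4) against 15.9, 13.7, 13.3 and 12.4 CPM (KO 1 to 4), with a log2 fold change of 0.72 (edgeR, SE 0.10, adjusted p = 0.00325) with the set as a term. Icam1, an adhesion molecule that endothelium also carries, was at 698, 649, 339.7 and 326 CPM (WT 1 to 4) against 764, 525, 534 and 535 CPM (KO 1 to 4), with a log2 fold change of 0.501 (edgeR, SE 0.10, adjusted p = 0.0121). Tgfbr2_KO lay above WT in each set for both genes.

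Cxcl9, a chemokine that draws activated T cells, was at 39.9, 43.1, 196 and 201 CPM (WT 1 to 4) against 30.02, 95.1, 66.8 and 85.7 CPM (KO 1 to 4). The WT 3 and WT 4 values stood well above all others, and within each set Tgfbr2_KO lay below WT, with a log2 fold change of -0.99 (edgeR, SE 0.17, adjusted p = 0.00857) with the set as a term. Fcgr1, the high-affinity Fc receptor, which also served as a macrophage marker here, was at 76.8, 76.6, 157 and 165 CPM (WT 1 to 4) against 62.2, 132, 135 and 131 CPM (KO 1 to 4), with a log2 fold change of -0.29 (edgeR, SE 0.04, adjusted p = 0.0029). Among 17 further class I genes 11 fell and 6 did not pass in the 5 other libraries (median -0.14), and with the set as a term Lnpep, a peptide-trimming aminopeptidase of endosomes, fell by a log2 fold change of -0.24 (edgeR, SE 0.05, adjusted p = 0.0173). Among 17 constitutive proteasome genes 13 fell and 4 did not pass in the 5 other libraries (median -0.17), so lower values there were not limited to the immunoproteasome, whose median was -0.35. With the set as a term 0 of these 17 passed. An unadjusted p under 0.05 was found for 7 of them (edgeR), against 3908 of all 12750 genes tested. Psma1, a core subunit, had the smallest p, at a log2 fold change of -0.20 (edgeR, SE 0.07, adjusted p = 0.0825).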

How the data were processed

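RNA was extracted with TRIzol and turned into stranded mRNA libraries (TruSeq) that were read on a NovaSeq, per the labels' protocols. The authors deposited 1 table of estimated counts per gene, which its file name credits to salmon, and the values show no scaling. GRCm38 and DESeq2 1.40.1 stand in the submitters' processing notes. Salmon's version, annotation and strand setting, not given in the sources used here, could shift reads between genes that share sequence. Counts were rounded to whole numbers and fitted over all genes in R 4.3.3. Fits used edgeR 4.0.16 (with limma 3.58.1), with DESeq2 1.42.0 as an alternative. The filter was filterByExpr (minimum count 10, minimum total 15), which kept 12750 genes in 8 libraries and 12624 in 5, and scaling was by TMM. The test for genotype was edgeR's robust quasi-likelihood F-test, with p-values adjusted by Benjamini-Hochberg over all genes tested and a threshold of 0.05. SE is the standard error of a log2 fold change. Lung-rich differences use log2 CPM with a prior count of 2.

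The members and lists were chosen with earlier results of these data known. Of each group of members, up to 4 genes with the smallest p in the fit with the set term were to be given in every library; Gbp2, Gbp3, Gbp4, Gbp6, Igtp, Tgtp1 and Psmb9 were added after their values were seen. Of each further list, up to 4 genes with the smallest adjusted p in that fit were named, or 1 where none passed. Alternatives were scaling (RLE or totals), no filter, DESeq2, unrounded counts, the replicate number as a block, and leaving out each library. Summing WT 3 and WT 4 in the 5-library and interaction fits was chosen after seeing the data. Deviations of same-numbered libraries from their genotype means correlated at 0.869, -0.797, 0.7 and 0.754. Among same-numbered libraries only WT 2 and KO 2 lie in different sets. The signs follow the sets, so these values cannot show whether the numbers pair libraries. The labels do not say that they do, so the block was run only as an alternative. On simulated data with 200 genes changed by a log2 of 1, 11.5% were recovered with 8 libraries (12642 genes), 92.5% with the set term (12568), 99.5% in the 5 libraries (12489) and 80% for the interaction (12623). False calls numbered 1, 9, 14 and 16 in that order. Only genes with higher counts were changed, and changes smaller than a log2 of 1 were not simulated. All libraries were drawn independently from the fitted spread. The simulation thus cannot show how the fits behave if KO 1 alone deviates or WT 3 and WT 4 are not independent. The comparison of proteins that was planned was not run. A gene of the signalling list is counted with it but not reported here.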

Additional observations from a re-analysis of the deposited data

Results flagged for a closer look

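KO 1 lay farther from KO 2 to 4 than the 95% critical value of Dixon's test allows for 4 samples in 15 of the 31 tested genes, 13 high and 2 low. Over all genes tested KO 1 lay apart in this way in 31.7%, while chance flags about 1 in 20 such groups. The genes share the same library. High in KO 1 were Gbp2 at 156.7 CPM, Gbp4 at 165.8, Gbp5 at 49.03, Gbp6 at 143.0, Gbp9 at 147.9, Igtp at 87.65, Irgm1 at 86.13, Irgm2 at 93.63, Iigp1 at 131.7, Tgtp1 at 34.05, Tgtp2 at 124.0, Irf1 at 392.3 and Tap2 at 103.1 CPM. Low in KO 1 were H2-K1 at 1668 CPM and H2-D1 at 2313 CPM.

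The genotype by set interaction was called for 25 genes (edgeR, adjusted p from 2.46e-06 for Gbp4 and Gbp6 to 0.0166 for B2m), each time with the log2 difference Tgfbr2_KO minus WT more positive in the lung-rich set. The only Tgfbr2_KO library there is KO 1, so the test assumes that it varies like the other groups. On the log2 scale the difference between the sets was 1.66 for Gbp2, 1.05 for Gbp3, 2.56 for Gbp4, 0.99 for Gbp5, 2.33 for Gbp6, 0.63 for Gbp7, 2.25 for Gbp8 and 0.94 for Gbp9. Among the IRGs it was 1.54 for Igtp, 1.06 for Irgm1, 0.83 for Irgm2, 1.48 for Iigp1, 2.94 for Tgtp1 and 1.25 for Tgtp2. In the class I pathway and its activator it was 0.84 for Nlrc5, 0.77 for Psmb8, 0.77 for Psmb9, 0.44 for Psmb10, 0.44 for Psme1, 0.67 for Psme2, 0.81 for Tap1, 0.64 for Tap2 (0.635), 0.40 for Tapbp, 0.34 for B2m and 0.31 for H2-K1.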

How the results depend on the processing

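Over 8 libraries the count of genes that passed was 0 higher and 0 lower in 13 of the 15 fits; DESeq2 gave 1 higher, and leaving out single libraries gave 0 to 1 higher and 0 to 2 lower, the calls coming without KO 1. With the replicate number as a block, the 8-library fit called 0 members, and the fit with the set term 0 higher and 0 lower. With WT 3 and WT 4 summed and KO 4 dropped, the set-term fit also gave 0 and 0. Leaving out single libraries there gave 1 to 4 higher and 2 to 20 lower, with 20 lower without KO 1. In the 5 other libraries summing WT 3 and WT 4 left 2 higher, and leaving out libraries 1 to 4 higher, 1 without WT 3. Of the 21 genes lower there, 19 to 21 stayed called, depending on the alternative, and Socs1 and Tgtp1 were those lost. For values near 0 the sign moved. H2-D1 in the 5 other libraries was -0.0066 without a filter, -0.0057 with WT 3 and WT 4 summed and -0.0147 to 0.0222 with libraries left out, and Iigp1 was -0.101 to 0.0550 with libraries left out. The difference between the sets for Ifngr1 was -0.0199 with WT 3 and WT 4 summed and -0.05002 to 0.0819 with libraries left out, and for H2-D1 -0.0058 to 0.122. It was called lower for 0 to 1 member (Ifngr2 without WT 1), and 22 to 25 of the 25 calls stayed, with B2m, H2-K1 and Psmb10 those lost. The median of the GBP genes with the set term ranged from -0.56 to 0.25 and changed sign in 6 of 16 fits, so no direction is given for it. The interaction has no value without KO 1, and the cause of these shifts was not tested. Over all genes the 8-library fit gave 25 higher and 13 lower, but 347 and 180 with DESeq2, 53 and 28 with library totals, 619 and 241 without KO 1, and 0 and 0 with the block or without any other single library. The set-term fit gave 1095 and 1006, but 42 and 67 with the block and 70 and 115 with the libraries summed.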
